A study of Mus musculus with 24 samples.

Results

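The Hox genes described here were the 39 genes whose symbols consist of Hox, a cluster letter from a to d and a number, out of 46078 genes in each of 2 expression tables. The series profiled mouse skeletal muscle stem cells (satellite cells) and myoblasts with and without Chd4, the ATPase of the NuRD chromatin remodelling and histone deacetylase complex, in 16 RNA-seq libraries, 4 in each of 4 groups. All mice were C57BL/6 and 2 to 4 months old. In culture, AdCRE myoblasts had received an adenovirus carrying CRE and AdGFP myoblasts an adenovirus carrying GFP for 72 hours. Both were Chd4fl/fl primary myoblasts grown from satellite cells of uninjured resting muscle and kept proliferating in medium with serum and FGF. In vivo, Chd4dPax7ER and Chd4fl/fl satellite cells were sorted as SCA1-/CD45-/α7-integrin+/CD34+ cells from fore and hind limb muscles 3 days after cardiotoxin, a toxin that kills muscle fibres and starts regeneration. The name Chd4dPax7ER refers to Pax7, the satellite cell transcription factor gene, but the labels spell out neither the Cre line nor its induction, nor whether the Chd4fl/fl controls carried Cre. In culture, an effect of CRE itself and of Chd4 loss cannot be told apart. The labels do not say that replicates came from separate mice or cultures, so the tests measure the spread between libraries, which may be technical. The 8 ATAC-seq samples of the series are not analysed here.

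Hox genes encode homeodomain transcription factors that lie in 4 clusters, HoxA to HoxD, and are numbered by paralogue group from 1 at the 3′ end of a cluster to 13 at the 5′ end. In the embryo they are switched on in that order along the body axis, so that low numbers mark anterior and high numbers posterior or distal tissue. Adult limb muscle stem cells and connective tissue keep part of this positional code, and Polycomb repressive complexes, which write and read H3K27 trimethylation, keep the unused Hox genes silent while Trithorax complexes keep the used ones active. The RefSeq annotation of GRCm38.p6 places HoxA on chromosome 6 between 52155367 and 52260880, HoxB on chromosome 11 between 96194316 and 96368254, HoxC on chromosome 15 between 102921131 and 103036856, and HoxD on chromosome 2 between 74668225 and 74765142. HoxA holds 11 of the genes, HoxB 10, HoxC 9 and HoxD 9. Some annotated spans overlap, among them Hoxa3 with Hoxa4, Hoxa5 and Hoxa6, Hoxb3 with Hoxb4, Hoxd3 with Hoxd4, and Hoxd10 with Hoxd11. Overlaps on the opposite strand include Hoxa11 with the antisense gene Hoxa11os, Hoxc4 with Gm30528, Hoxa10 with Gm52902 and Hoxd8 with Gm38462. No source used here says how the authors' counting treated strand or reads shared by overlapping genes. A strand setting could not part Hoxa3 from Hoxa5 or Hoxa6, Hoxd3 from Hoxd4 or Hoxd10 from Hoxd11, which share a strand. The values of all these overlapping genes are therefore uncertain.

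Chd4 was lower in every library of both knockout groups. Its RPKM (reads scaled to gene length and library size) was 15.8, 23.9, 21.3 and 22.1 in AdCRE libraries, against 76.2, 67.8, 70.8 and 85.5 in AdGFP libraries. It was 64.1, 50.4, 63.8 and 48.7 in Chd4dPax7ER libraries, against 135.1, 125.8, 118.6 and 126.0 in Chd4fl/fl libraries. The mean was 27.7% of the AdGFP mean in AdCRE cells and 44.9% of the Chd4fl/fl mean in Chd4dPax7ER cells. The exact two-sided permutation test over 70 arrangements gave p = 0.0286 in each setting, the smallest value it can give. Read totals are not listed in the tables, but the step size of the RPKM values gave relative depths that spanned 1.64-fold among cultured libraries, with AdGFP replicate 4 the deepest, and 1.14-fold among sorted-cell libraries. On that scale a sorted-cell library held 0.232 to 0.263 times the reads of AdGFP replicate 1, so a low Hox value in vivo rests on few reads.

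The promoters of the 3 Hox genes with the firmest changes in vivo are shown, because Hoxa7 and Hoxa9 fell and Hoxc4 rose. Each sequence is the 250 bases before the RefSeq start in GRCm38.p6, read 5′ to 3′ along the gene, with every CG pair, the site of DNA methylation, in capitals. Hoxa7 is chr6:52218574-52218823 on the minus strand, Hoxa9 is chr6:52227371-52227620 on the minus strand, and Hoxc4 is chr15:103034145-103034394 on the plus strand, the last lying inside the annotated Hoxc4 gene.
Hoxa7: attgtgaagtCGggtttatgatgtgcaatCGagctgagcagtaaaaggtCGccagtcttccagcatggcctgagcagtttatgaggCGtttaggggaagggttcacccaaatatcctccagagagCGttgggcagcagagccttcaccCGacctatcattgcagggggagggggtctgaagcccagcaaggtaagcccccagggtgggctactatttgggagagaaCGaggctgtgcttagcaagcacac
Hoxa9: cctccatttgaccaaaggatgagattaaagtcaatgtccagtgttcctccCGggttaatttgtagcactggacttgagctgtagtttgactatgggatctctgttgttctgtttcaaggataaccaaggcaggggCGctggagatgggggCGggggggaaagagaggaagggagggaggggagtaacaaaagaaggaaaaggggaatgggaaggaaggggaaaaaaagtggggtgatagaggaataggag
Hoxc4: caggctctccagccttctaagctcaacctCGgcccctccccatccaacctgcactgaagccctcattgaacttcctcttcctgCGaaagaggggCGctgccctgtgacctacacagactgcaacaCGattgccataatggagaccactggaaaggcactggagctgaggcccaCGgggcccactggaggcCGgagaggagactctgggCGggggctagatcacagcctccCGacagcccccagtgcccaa
The Hoxa7 sequence holds 7 CG pairs, the Hoxa9 sequence 3 and the Hoxc4 sequence 8, against a median of 6 over 32851 mouse promoters of the same length. Each was searched on both strands for TATAAA (the TATA box), the common promoter element CCAAT, the core TGACAG that Meis and Pknox cofactors bind, and TGATTNAT, a joint site of Pbx and Hox proteins, each motif being counted on its own whether or not matches overlapped. None of the 4 motifs was found in these 3 windows. Over all promoters, 12.4% held the TATA box, 33.8% the CCAAT element, 15.9% the Meis core and 2.82% the joint site. The table gave a promoter for 22 of the 39 Hox genes in 24 entries, of which 14 held the CCAAT element, 4 the TATA box, 2 the Meis core (Hoxa2 and Hoxa3) and 2 the joint site (Hoxa2 and Hoxd11).

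Which Hox genes were read out differed by cluster. In sorted satellite cells, HoxC and HoxA carried nearly all Hox signal. The summed RPKM of the 9 HoxC genes was 34.2 to 47.9 in Chd4dPax7ER libraries and 34.7 to 45.7 in Chd4fl/fl libraries. That of the 11 HoxA genes was 10.47 to 16.51 in Chd4dPax7ER libraries (mean 13.1 ± 2.56) and 16.46 to 21.45 in Chd4fl/fl libraries (mean 19.7 ± 2.27, SD, 4 libraries each). The 10 HoxB genes summed to at most 0.28 RPKM in a Chd4dPax7ER library and at most 0.22 RPKM in a Chd4fl/fl library, and the 9 HoxD genes to 0.11 to 1.03 RPKM in Chd4dPax7ER libraries and 0.84 to 0.98 RPKM in Chd4fl/fl libraries. A low sum in these bulk samples cannot tell fewer expressing cells from less RNA per cell.

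In vivo, 24 of the 39 Hox genes had means under 0.5 RPKM in both groups, among them Hoxa2, Hoxa3, Hoxa13, all 10 HoxB genes, Hoxc12, Hoxc13 and every HoxD gene except Hoxd8. Of these, 12 were at 0 in all 8 libraries, namely Hoxb1, Hoxb6, Hoxb7, Hoxb8, Hoxb13, Hoxc12, Hoxd1, Hoxd4, Hoxd10, Hoxd11, Hoxd12 and Hoxd13. A count of 0 allows up to 3 reads in a library, which averaged from 0.157 RPKM for Hoxd4 to 0.448 RPKM for Hoxc12 over the 8 of these genes with a known step, counting error only. The nearest gene under 0.5 RPKM was Hoxc13, with means of 0.43 RPKM in Chd4dPax7ER cells and 0.192 RPKM in Chd4fl/fl cells. The nearest above was Hoxc5, with means of 0.733 RPKM in Chd4dPax7ER cells and 0.753 RPKM in Chd4fl/fl cells.

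The cultured myoblasts read out a wider part of the clusters. There, 11 Hox genes had means under 0.5 RPKM in both groups: Hoxb1, Hoxb2, Hoxb13, Hoxc12, Hoxd1, Hoxd3, Hoxd4, Hoxd10, Hoxd11, Hoxd12 and Hoxd13. Hoxb1, Hoxb13, Hoxd11 and Hoxd12 were at 0 in all 8 cultured libraries. Hoxb2 was the nearest gene under the limit, with means of 0.454 RPKM in AdCRE cells and 0.479 RPKM in AdGFP cells. The HoxB genes summed to 5.35 to 15.8 RPKM in AdCRE libraries and 4.70 to 12.6 RPKM in AdGFP libraries. The HoxA sum was 37.6 to 46.7 RPKM in AdCRE libraries and 38.4 to 47.8 RPKM in AdGFP libraries, while the HoxC sum ran from 8.63 to 45.4 RPKM in AdCRE libraries and from 8.14 to 42.9 RPKM in AdGFP libraries. Cultured and sorted cells were deposited as separate tables normalised separately, so their levels are given side by side and were not tested against each other.

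**Figure D1:**
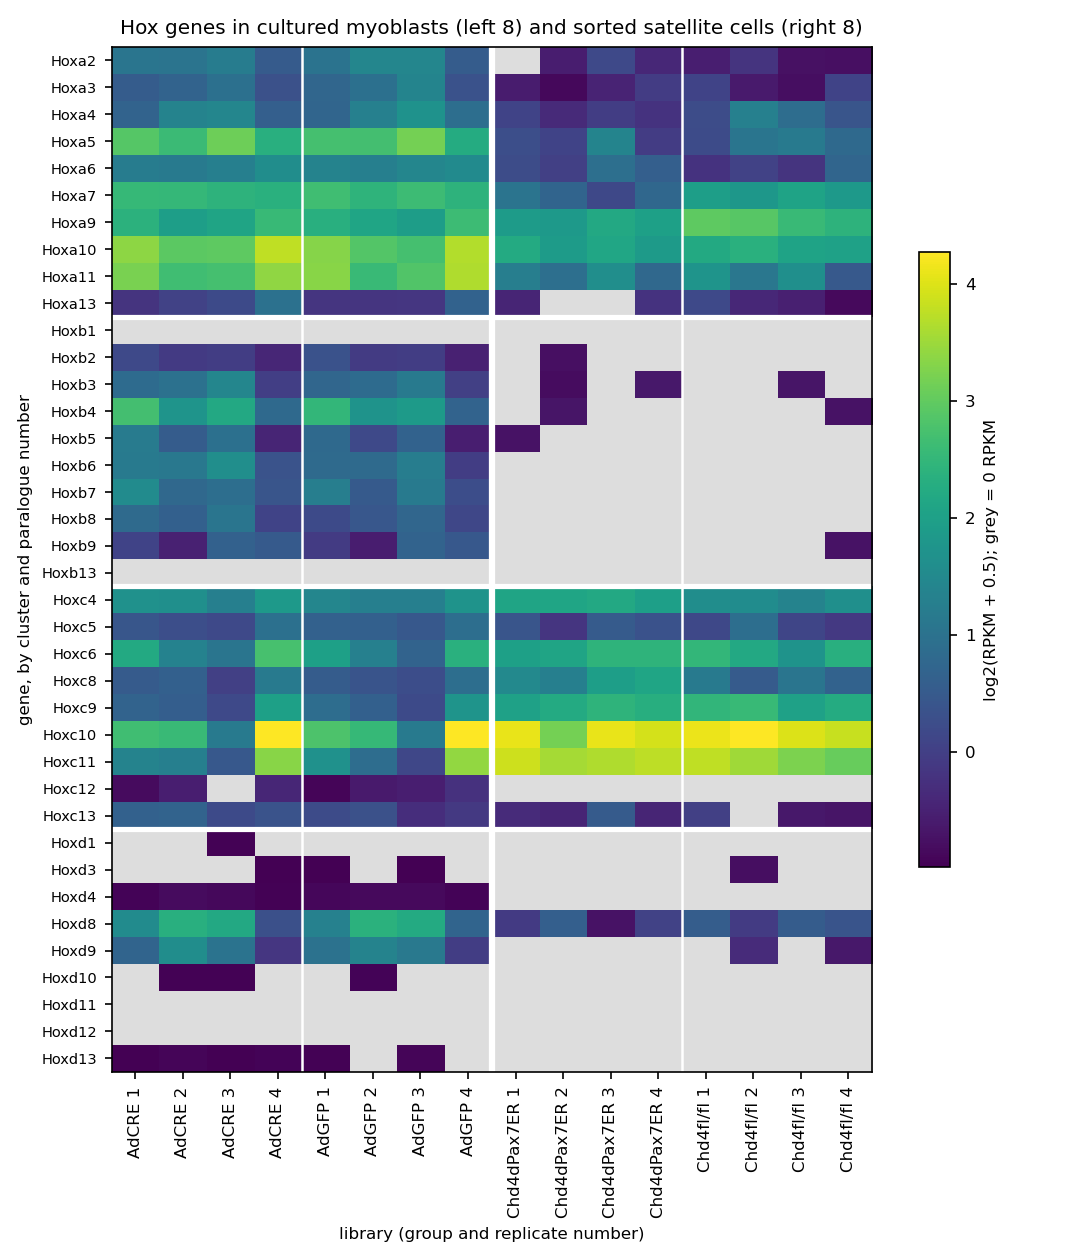
Heat map of log2(RPKM + 0.5) of Hox genes (rows, by cluster and paralogue number) in the 16 libraries (columns, with AdCRE and AdGFP myoblasts left of Chd4dPax7ER and Chd4fl/fl satellite cells). Grey cells are 0 RPKM: HoxB and most HoxD genes are grey or near the bottom of the scale in sorted cells, while Hoxc10 and Hoxc11 are high in all 8 of them.

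The most abundant Hox gene in sorted cells was Hoxc10, a posterior gene associated with the lumbar region and hind limb. Its RPKM was 16.6, 8.49, 16.7 and 14.7 in Chd4dPax7ER libraries, against 16.95, 18.7, 15.6 and 13.8 in Chd4fl/fl libraries. The groups overlapped, with the Chd4dPax7ER replicate 2 library lowest, and the log2 fold change on log2(RPKM + 0.5) was -0.23 (SE 0.20, limma adjusted p = 0.433). Hoxc11, its neighbour, which patterns the lower leg with Hoxa11, had 14.2, 11.3, 12 and 12.99 RPKM in Chd4dPax7ER libraries, against 13.1, 11.04, 8.99 and 7.84 RPKM in Chd4fl/fl libraries. Its log2 fold change was 0.31 (SE 0.15, limma adjusted p = 0.166). The 2 genes together made up 43.1% to 52.2% of all Hox RPKM in Chd4dPax7ER libraries and 41.3% to 44.9% in Chd4fl/fl libraries. After these and Hoxa9, the next genes by Chd4fl/fl mean were Hoxc9, with 3.57 to 4.90 RPKM in Chd4dPax7ER libraries and 3.57 to 5.40 RPKM in Chd4fl/fl libraries, and Hoxc6, with 3.54 to 4.94 RPKM in Chd4dPax7ER libraries and 2.77 to 5.18 RPKM in Chd4fl/fl libraries. Hoxb3 was the highest HoxB gene by Chd4fl/fl mean, with 0, 0.07, 0 and 0.14 RPKM in Chd4dPax7ER libraries and 0, 0, 0.12 and 0 RPKM in Chd4fl/fl libraries.

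In sorted satellite cells, 3 HoxA genes fell and 2 HoxC genes rose in Chd4dPax7ER. The genes that fell were Hoxa7, Hoxa9 and Hoxa4, and those that rose were Hoxc4 and Hoxc8. Hoxa7, Hoxa9 and Hoxc4 passed under every setting run, whereas the calls of Hoxa4, which entered the test through the Chd4fl/fl libraries, and of Hoxc8 were lost under the settings given with their values. Of the 39 Hox genes, 15 reached 0.5 RPKM in at least 4 of the 8 libraries and were tested, and 5 of these passed limma at an adjusted p under 0.05, 33.3% of those tested against 26.6% of all 13344 genes tested. Of all genes tested, 11.9% were called lower and 14.7% higher. These 5 genes were also the 5 tested Hox genes whose Chd4dPax7ER and Chd4fl/fl libraries did not overlap, a pattern that 30.3% of all tested genes showed. The share of Hox genes called was thus near that of all genes. The median log2 fold change was -0.09 over the 15 Hox genes and -0.02 over all genes tested.

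Hoxa7, which acts with its neighbours in patterning the trunk, fell most. It had 1.55, 1.15, 0.62 and 1.22 RPKM in Chd4dPax7ER libraries, against 3.40, 2.99, 3.72 and 3.08 RPKM in Chd4fl/fl libraries. Every Chd4dPax7ER library was below every Chd4fl/fl library. The log2 fold change was -1.24 (SE 0.20, limma adjusted p = 0.00252), and the values correspond to about 39, 29, 15 and 31 reads in Chd4dPax7ER libraries and 81, 71, 84 and 79 reads in Chd4fl/fl libraries.

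Hoxa9, a gene of the posterior trunk and limb that also works with Meis1 in blood progenitors, was the most abundant HoxA gene in Chd4fl/fl cells. It had 3.25, 3.09, 4.07 and 3.51 RPKM in Chd4dPax7ER libraries, against 7.33, 7.03, 5.47 and 4.86 RPKM in Chd4fl/fl libraries. The groups did not overlap, and the log2 fold change was -0.73 (SE 0.16, limma adjusted p = 0.00861). Hoxa4, an anterior gene whose annotated span overlaps that of Hoxa3, had 0.56, 0.28, 0.48 and 0.37 RPKM in Chd4dPax7ER libraries, against 0.69, 1.98, 1.36 and 0.83 RPKM in Chd4fl/fl libraries. Its log2 fold change was -0.84 (SE 0.27, limma adjusted p = 0.0431). Hoxa4 entered the test through the Chd4fl/fl group, where 4 libraries reached 0.5 RPKM against 1 Chd4dPax7ER library, and rests on about 3 to 20 reads in a library. Its call was lost with the replicate number as a block (limma adjusted p = 0.0894, where 21.6% of all genes and 4 of 15 Hox genes passed) and without the expression filter (0.0802). It was also lost without any single library other than Chd4fl/fl replicate 1 (0.0520 to 0.109).

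The other tested HoxA genes did not pass. Hoxa10, which patterns the thigh and upper arm, had means of 3.61 ± 0.487 RPKM in Chd4dPax7ER cells and 4.025 ± 0.475 RPKM in Chd4fl/fl cells (SD, 4 libraries each), and a log2 fold change of -0.14 with a 95% interval of -0.45 to 0.17. Hoxa11 had a log2 fold change of -0.09 with an interval of -0.77 to 0.59. Hoxa5 had -0.39 with an interval of -1.18 to 0.40, and its Chd4dPax7ER replicate 3 library, at 2.14 RPKM, stood apart from the others at 0.47 to 0.72 RPKM. Hoxa6 had 0.35 with an interval of -0.30 to 1.01. The intervals of Hoxa5 and Hoxa11 include a fall as large as that of Hoxa9. HoxA genes as a whole took 20.8% to 25.6% of the Hox RPKM in Chd4dPax7ER libraries and 31.1% to 35.2% in Chd4fl/fl libraries, ranges that did not overlap. HoxC took nearly all of the rest. The summed RPKM overlapped between the groups for HoxC and, narrowly, for HoxA.

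Hoxc4, the most anterior HoxC gene, had 3.73, 3.82, 4.09 and 3.47 RPKM in Chd4dPax7ER libraries, against 2.52, 2.46, 2.08 and 2.63 RPKM in Chd4fl/fl libraries. All 4 Chd4dPax7ER libraries were above all 4 Chd4fl/fl libraries. The log2 fold change was 0.55 (SE 0.13, limma adjusted p = 0.0123), on about 60 to 68 reads in a Chd4dPax7ER library and 32 to 46 reads in a Chd4fl/fl library. With the replicate block, Hoxc4 passed only narrowly (limma adjusted p = 0.0494). Hoxc8, known for specifying motor neuron pools and vertebrae at the level of the fore limb, had 2.33, 1.94, 3.38 and 3.82 RPKM in Chd4dPax7ER libraries, against 1.73, 0.95, 1.59 and 1.09 RPKM in Chd4fl/fl libraries. Its groups did not overlap either, although the gap was narrow, and the log2 fold change was 0.86 (SE 0.23, limma adjusted p = 0.0255). The Hoxc8 call was lost without the expression filter (adjusted p = 0.0579) and without Chd4dPax7ER replicate 3 (0.0628) or replicate 4 (0.0637) or Chd4fl/fl replicate 2 (0.0683) or replicate 4 (0.0630).

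Hoxc5, Hoxc6 and Hoxc9, which lie between or next to these genes, had log2 fold changes of 0.01, 0.07 and -0.08, with 95% intervals of -0.60 to 0.62, -0.37 to 0.50 and -0.42 to 0.27. Hoxd8, the only HoxD gene tested, had 0.44, 1.03, 0.11 and 0.54 RPKM in Chd4dPax7ER libraries, against 0.98, 0.46, 0.97 and 0.80 RPKM in Chd4fl/fl libraries. The groups overlapped, with a log2 fold change of -0.39 (SE 0.30, limma adjusted p = 0.366). Neighbouring genes in a cluster had unlike values. Hoxa7 and Hoxa9 fell while Hoxa10 and Hoxa11 did not pass, and Hoxc4 and Hoxc8 rose while Hoxc5 and Hoxc6 did not pass, although differences between neighbours were not tested.

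**Figure D2:**
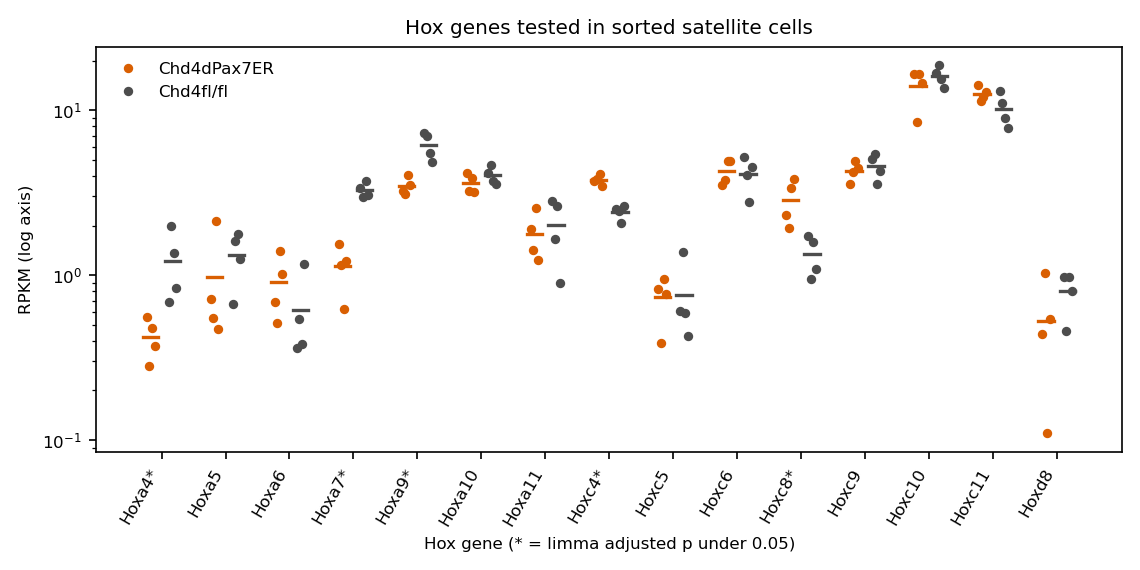
RPKM (log axis) of the 15 tested Hox genes in each sorted satellite cell library, with Chd4dPax7ER left of Chd4fl/fl, points for the 4 libraries of a group and bars for the mean. Asterisks mark the 5 genes with a limma adjusted p under 0.05, in which the points of the groups do not overlap.

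Several, but not all, of the marker lists for other cell types and for mature myofibres moved with the genotype in the same libraries. Of all genes tested in vivo, 14.7% were called higher and 11.9% lower. TPM scaling called 1720 and quantile scaling 1751 of the 13344 genes higher, against 1960 without them. Of 9 fibro-adipogenic progenitor and fibroblast markers 8 were tested and 5 rose, and their summed RPKM was 244 to 409 in Chd4dPax7ER libraries and 100 to 133 in Chd4fl/fl libraries. The 5 pericyte markers summed to 12.7 to 38.1 RPKM in Chd4dPax7ER libraries and 4.47 to 9.36 RPKM in Chd4fl/fl libraries, with 3 of 4 tested rising (2 under either other scaling tried). The 4 Schwann cell markers summed to 8.47 to 38.2 RPKM in Chd4dPax7ER libraries and 3.15 to 9.71 RPKM in Chd4fl/fl libraries, with 3 of 4 tested rising (2 under either other scaling tried), of which Sox10 and S100b entered the test through the Chd4dPax7ER libraries alone. All 5 tested mature myofibre markers rose, 4 with the replicate block, with sums of 36.0 to 155 RPKM in Chd4dPax7ER libraries and 9.74 to 18.8 RPKM in Chd4fl/fl libraries. Cultured myoblasts also read out these myofibre markers, with sums of 67.5 to 487 RPKM in AdCRE and 53.6 to 414 RPKM in AdGFP libraries. The 5 endothelial markers summed to 7.74 to 14.2 RPKM in Chd4dPax7ER libraries and 3.62 to 6.85 RPKM in Chd4fl/fl libraries, with 1 of 2 tested rising (Cldn5). The filter was met by the 4 Chd4dPax7ER libraries and by only some Chd4fl/fl libraries for Cldn5 and for the myofibre markers Mb and Pvalb. None of 5 tested leukocyte markers passed, with sums of 65.6 to 146 RPKM in Chd4dPax7ER libraries and 55.9 to 104 RPKM in Chd4fl/fl libraries. The 3 tenocyte markers, of which 1 was tested and did not pass, summed to 5.25 to 10.3 RPKM in Chd4dPax7ER libraries and 4.71 to 6.15 RPKM in Chd4fl/fl libraries. No marker of these lists was at 0 in all 8 libraries. Satellite cell and myoblast markers summed to 1111 to 1338 RPKM in Chd4dPax7ER libraries and 687 to 865 RPKM in Chd4fl/fl libraries; 4 of 9 rose, namely Myod1, Des, Itga7 and Sdc4, and Pax7 fell (log2 fold change -0.85, limma adjusted p = 0.0301). The part of these cell types in the Hox changes was not tested.

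In cultured myoblasts, no Hox gene passed between AdCRE and AdGFP in the fit that leaves out the pairing of libraries by replicate number. With that number as a block, 3 of 28 passed, 10.7% against 36.2% of all genes. Of the 39 Hox genes, 28 were tested and 0 passed limma without the block, against 0.656% of 13567 genes. Only 1 of the 28, Hoxc13, had an unadjusted limma p under 0.05 in that fit, as had 2111 of the 13567 genes. Hoxc13, the most posterior HoxC gene and a regulator of hair keratin genes, had 1.08, 1.11, 0.657 and 0.788 RPKM in AdCRE libraries, against 0.659, 0.755, 0.319 and 0.430 RPKM in AdGFP libraries. The groups overlapped in part, and each AdCRE library was above the AdGFP library of the same number, and the log2 fold change was 0.45 (SE 0.18, limma adjusted p = 0.297).

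Replicate numbers pair the cultured libraries, because AdCRE and AdGFP libraries of the same number deviated together from their group means. With the number as a block, 3 of 28 Hox genes rose in AdCRE, 10.7% against 36.2% of all genes called, and none fell. The log2 fold changes ran from -0.23 to 0.45 in either fit, with 17 of 28 above 0. The genes that rose were Hoxc13 (adjusted p = 0.00951), Hoxb6 (log2 fold change 0.35, adjusted p = 0.0116) and Hoxc6 (0.25, adjusted p = 0.0450), all by limma. For Hoxc13 the filter level of 0.5 RPKM was reached in 4 AdCRE libraries but only 2 AdGFP libraries. Hoxb6 had 1.75, 1.67, 2.58 and 0.786 RPKM in AdCRE libraries, against 1.28, 1.29, 1.86 and 0.486 RPKM in AdGFP libraries, higher in AdCRE in 4 of 4 pairs. Hoxc6 had 4.12, 2.05, 1.59 and 6.21 RPKM in AdCRE libraries, against 3.53, 1.98, 1.11 and 4.61 RPKM in AdGFP libraries, also higher in 4 of 4 pairs. The Hoxc6 call was lost without pair 1, pair 3 or pair 4, while Hoxb6 and Hoxc13 passed without each pair in turn. In the same libraries the pericyte markers summed to 183 to 407 RPKM in AdCRE and 52.5 to 107 RPKM in AdGFP, with 1 of 3 tested rising (Rgs5) and 2 with the replicate block. Rgs5 made up nearly all of these sums, with means of 273 RPKM in AdCRE and 65.6 RPKM in AdGFP. Abcc9 had means of 2.58 RPKM in AdCRE and 2.08 RPKM in AdGFP, and Cspg4 2.29 and 1.97 RPKM. Pdgfrb and Kcnj8 were too low to be tested. Without the block, 0.656% of all genes passed. The endothelial markers summed to 1.80 to 2.63 RPKM in AdCRE and 0.850 to 1.22 RPKM in AdGFP, with 0 of 2 rising and 1 with the block (Tek). Of 4 tested fibro-adipogenic progenitor and fibroblast markers 2 rose (Col1a1 and Ly6a), and with the block Col3a1 also fell. Their sums were 56.1 to 108 RPKM in AdCRE and 54.2 to 109 RPKM in AdGFP, with Dpt at 0 throughout, and Col1a1 entered the test through the AdCRE libraries alone. With the block 4 of 6 mature myofibre markers and the 1 tested leukocyte marker (Cd68) rose, 3 of 9 satellite cell and myoblast markers fell, and neither of 2 tested tenocyte markers passed, while none of these passed without it. The myofibre markers summed to 67.5 to 487 RPKM in AdCRE and 53.6 to 414 RPKM in AdGFP. The leukocyte markers summed to 2.55 to 11 RPKM in AdCRE and 1.09 to 6.73 RPKM in AdGFP, with Adgre1 at 0 throughout. Their part in the Hox values was not tested.

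The genes that changed in vivo had small fold changes in culture. Hoxa7 had 5.27, 5.26, 4.86 and 4.59 RPKM in AdCRE libraries, against 5.84, 4.93, 5.68 and 4.85 RPKM in AdGFP libraries, a log2 fold change of -0.08 with a 95% interval of -0.29 to 0.13. Hoxa9 had 4.78, 3.42, 3.75 and 5.38 RPKM in AdCRE libraries, against 4.56, 3.78, 3.33 and 5.65 RPKM in AdGFP libraries, a log2 fold change of 0.00 with an interval of -0.42 to 0.43. For Hoxa4, Hoxc4 and Hoxc8 it was -0.14 (-0.76 to 0.49), 0.18 (-0.16 to 0.52) and 0.07 (-0.52 to 0.65). These intervals are from fits without the replicate block, with which the SE of Hoxa9 in culture was 0.065 rather than 0.18. The difference of the log2 fold changes, in vivo minus in vitro, was tested for the 15 Hox genes measured in both settings. Without the block Hoxa7 alone passed, with a difference of -1.16 (SE 0.22, adjusted p = 0.00601 from the limma fits), where 5.01% of 11941 genes passed. For Hoxa9 the difference was -0.74 (adjusted p = 0.0879) and for Hoxc8 0.79 (adjusted p = 0.211). With the replicate block in vitro both also passed, at 0.00689 and 0.0472. The share of all genes that passed was not counted for that fit, so these calls cannot be set against the 5.01% above. Hoxa9 also passed without AdGFP replicate 4 (0.0424). The settings differ in injury, in culture and in how Chd4 was deleted, and these cannot be told apart.

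**Figure D3:**
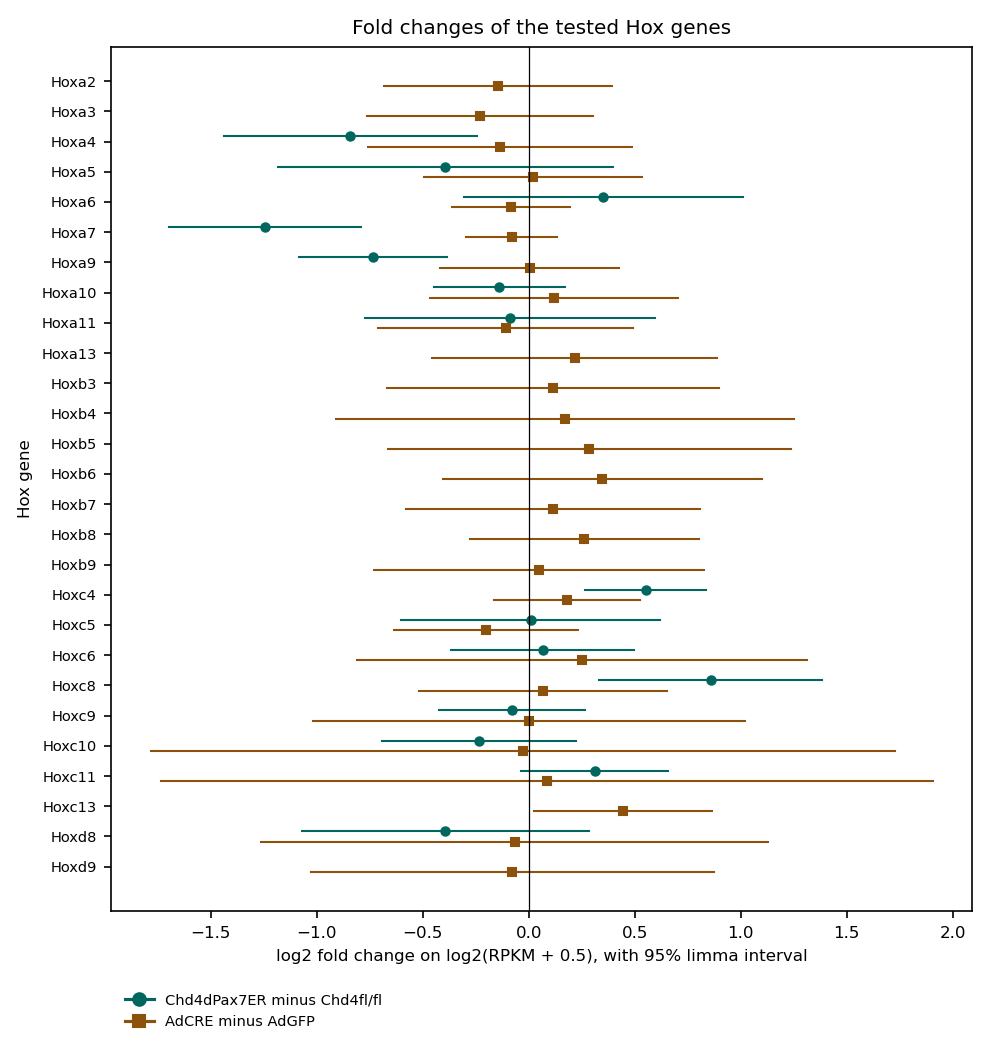
Log2 fold changes of the tested Hox genes on log2(RPKM + 0.5) with 95% limma intervals, Chd4dPax7ER minus Chd4fl/fl (circles, 15 genes) above AdCRE minus AdGFP (squares). The intervals of Hoxa4, Hoxa7, Hoxa9, Hoxc4 and Hoxc8 exclude 0 in vivo, and the squares of Hoxc10 and Hoxc11 have the widest intervals, from -1.78 to 1.91. All intervals are from fits without the replicate block. With the block in culture, the SE fell from 0.77 to 0.054 for Hoxc10 and from 0.79 to 0.13 for Hoxc11.

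Cultured libraries also differed by replicate number. A limma F test of the number, with AdCRE against AdGFP as a second term and chosen after the data were seen, called 26 of 28 Hox genes, all but Hoxa6 and Hoxa7, against 57.6% of all genes. The mean of the highest number over that of the lowest had a median of 2.51-fold over the 28 genes and reached 13.3-fold for Hoxc11. The same test in sorted cells called none of 15 Hox genes and no gene at all, with 1 Hox gene at an unadjusted p under 0.05. Without number 1, 2, 3 or 4 in turn, 25, 25, 22 and 19 of the 28 Hox genes passed, while 36.2%, 52.8%, 57.1% and 35.2% of all genes did.

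Hoxc10 varied most by that F test. It had 5.81, 5.47, 1.75 and 18.7 RPKM in AdCRE libraries 1 to 4, against 6.52, 5.31, 1.75 and 18.8 RPKM in the AdGFP libraries of those numbers. Its mean in number 4 was 10.7 times that in number 3, and AdCRE and AdGFP libraries of a number were close to each other. Hoxc11 had 2.09, 1.96, 0.888 and 9.59 RPKM in AdCRE libraries, against 2.69, 1.36, 0.602 and 10.2 RPKM in AdGFP libraries. Number 4 was highest for 7 of 8 tested HoxC genes, Hoxc13 being the exception, and number 3 was lowest for all 8.

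Number 4 did not stand on the same side for all HoxA genes. It was highest for the 4 posterior genes, Hoxa9, Hoxa10, Hoxa11 and Hoxa13, and for Hoxa6, lowest for Hoxa7, and lay below the mean of the others for Hoxa2, Hoxa3, Hoxa4 and Hoxa5. Hoxa6 and Hoxa7 did not pass the F test. Hoxa10, the highest HoxA gene in culture, had 9.88, 7.18, 7.35 and 13.1 RPKM in AdCRE libraries, against 9.52, 6.82, 6.09 and 12.2 RPKM in AdGFP libraries. Hoxa13, which patterns the hand and foot, had 0.382, 0.538, 0.655 and 1.46 RPKM in AdCRE libraries, against 0.391, 0.393, 0.397 and 1.10 RPKM in AdGFP libraries. Hoxa5, a gene of the neck and chest region, ran the other way, with 6.94, 5.59, 8.10 and 4.53 RPKM in AdCRE libraries, against 6.15, 5.99, 8.51 and 4.26 RPKM in AdGFP libraries.

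HoxB and HoxD were low in number 4. It was lowest for 6 of 7 tested HoxB genes and for both tested HoxD genes. Hoxb4, known for expanding blood stem cells and the highest HoxB gene in culture, had 6.06, 2.84, 4.07 and 1.27 RPKM in AdCRE libraries, against 5.12, 2.81, 3.17 and 1.12 RPKM in AdGFP libraries. Hoxd8, the highest HoxD gene, had 2.42, 4.58, 4.05 and 0.742 RPKM in AdCRE libraries, against 2.01, 4.71, 4.21 and 1.14 RPKM in AdGFP libraries. Hoxb9 was the exception in HoxB, with 0.550, 0.213, 1.07 and 0.932 RPKM in AdCRE libraries, against 0.450, 0.180, 1.13 and 0.891 RPKM in AdGFP libraries, lowest in number 2. By paralogue number, number 4 lay above the mean of the other 3 numbers for 1 of 7 genes of paralogues 1 to 4, 4 of 11 of paralogues 5 to 8 and 8 of 10 of paralogues 9 to 13.

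**Figure D4:**
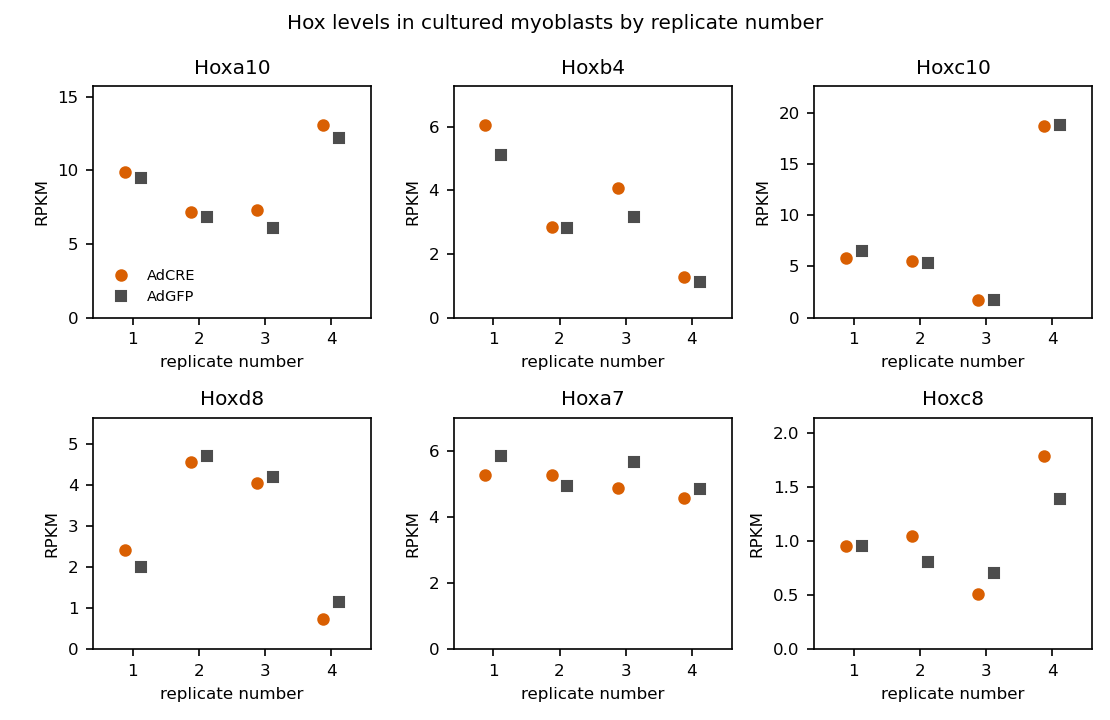
RPKM of 6 Hox genes in cultured myoblasts by replicate number, AdCRE (circles) left of AdGFP (squares), for the highest gene of each cluster (Hoxa10, Hoxb4, Hoxc10 and Hoxd8) and for Hoxa7 and Hoxc8. Same-numbered libraries sit together, number 4 being highest for Hoxa10 and Hoxc10 and lowest for Hoxb4 and Hoxd8, while Hoxa7 varies little.

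**Figure D5:**
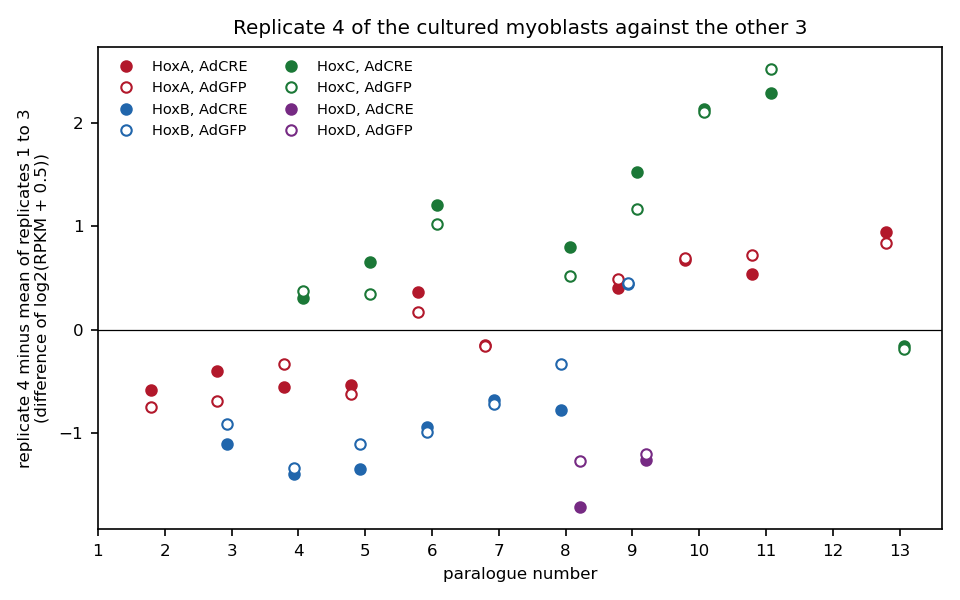
Log2(RPKM + 0.5) of replicate 4 minus the mean of replicates 1 to 3 in cultured myoblasts, by paralogue number and cluster (colours), for AdCRE (filled) and AdGFP (open). Each gene shown has the same sign in AdCRE and AdGFP, as did all 28 tested genes. Above 0 are Hoxa6, Hoxb9, the HoxA genes from Hoxa9 upward and all HoxC genes but Hoxc13, and the other genes shown are below.

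Other genes also varied by number. Myf5, a myogenic regulator, had 5.67, 5.73, 4.98 and 21.1 RPKM in AdCRE libraries 1 to 4, against 9.64, 7.66, 7.42 and 30.4 RPKM in AdGFP libraries. Mb, which encodes the oxygen store myoglobin of mature fibres, had 51.1, 375, 348 and 99.0 RPKM in AdCRE libraries, against 40.7, 311, 311 and 65.2 RPKM in AdGFP libraries. Hotair, a noncoding RNA gene within HoxC, had 0.488, 0.137, 0.193 and 1.88 RPKM in AdCRE libraries, against 0.481, 0.316, 0.254 and 1.77 RPKM in AdGFP libraries, highest in number 4 as for Hoxc10 and Hoxc11. Cd68, a macrophage marker, had 10.55, 2.24, 3.13 and 5.98 RPKM in AdCRE libraries, against 6.48, 0.806, 1.59 and 3.43 RPKM in AdGFP libraries, while Ptprc, which encodes the leukocyte antigen CD45, reached at most 0.00427 RPKM in an AdCRE library and 0.00214 RPKM in an AdGFP library. The labels name no source muscle, mouse, date or batch for a number, and the part of any of these in the Hox differences was not tested.

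Limb position genes gave further values for the sorted cells. Tbx5, a fore limb gene, and Pitx1, a hind limb gene, were listed at 0 in all 8 sorted-cell libraries. Tbx4, a hind limb T-box gene, had 6.47, 7, 7.13 and 7.24 RPKM in Chd4dPax7ER libraries, against 3.11, 3.53, 4.85 and 3.28 RPKM in Chd4fl/fl libraries. It rose in Chd4dPax7ER by a log2 fold change of 0.85 (SE 0.14, limma adjusted p = 0.00282). Lbx1, which directs muscle precursors into the limb, had a log2 fold change of 0.39 (limma adjusted p = 0.0913). In culture Tbx5 was at 0 in all 8 libraries, Pitx1 reached at most 0.103 RPKM in AdCRE libraries and 0.0954 RPKM in AdGFP libraries, and neither Tbx4 nor Lbx1 passed without the replicate block. With the block Tbx4 rose in AdCRE (log2 fold change 0.35, limma adjusted p = 0.0445).

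The cofactors that bind DNA with Hox proteins changed in both directions in vivo, with 3 of 7 tested rising and 1 falling, 57.1% called against 26.6% of all genes. Meis3 had 3.49, 3.14, 4.53 and 4.30 RPKM in Chd4dPax7ER libraries, against 1.29, 0.75, 1.31 and 1.29 RPKM in Chd4fl/fl libraries, a log2 fold change of 1.40 (limma adjusted p = 0.000990). Pknox2 rose by 0.49 and Pbx2 by 0.41 on the log2 scale, and Pbx3 fell by 0.59. The Pbx3 call was lost with the replicate block (limma adjusted p = 0.0556). With TPM scaling 2 cofactors fell, as did 2001 of 13344 genes, against 1588 without that scaling. Meis1, a common partner of Hoxa9, had a log2 fold change of 0.11 and did not pass. In culture none of 8 tested cofactors passed, and 4 rose with the replicate block, where 36.2% of all genes passed.

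Genes of the complexes that silence Hox clusters were counted against 11.9% of all genes called lower and 14.7% called higher in vivo. Of 11 tested genes of Polycomb repressive complex 2, which writes H3K27 methylation, 6 fell and 2 rose (4 and 2 with the replicate block), with a median log2 fold change of -0.30 against -0.02 over all genes. Ezh2, its methyltransferase, had 18.6, 12.2, 16.4 and 17.7 RPKM in Chd4dPax7ER libraries, against 31.6, 25.1, 25.1 and 20.8 RPKM in Chd4fl/fl libraries, a log2 fold change of -0.65. Ezh1 fell by 0.58 on the log2 scale, while the accessory genes Phf19 and Phf1 rose by 0.95 and 0.70. Polycomb repressive complex 1 ubiquitinates H2A and in some of its forms reads H3K27 methylation. Of its 16 tested genes, 6 fell and none rose (5 fell with the block), with Pcgf1 at -0.67, Bmi1 at -0.61, Pcgf6 at -0.50 and Phc1 at -0.44. No Cbx gene of this list passed. Among 12 Trithorax and H3K27 demethylase genes 1 fell, Wdr5 (log2 fold change -0.39), and 3 fell under each of the other scalings tried. Of all 13344 genes, 2001 fell with TPM scaling and 1949 with quantile scaling, against 1588 without them. In culture no tested gene of these 3 lists passed limma, with 5 at an unadjusted p under 0.05, as were 2111 of all 13567 genes tested. With the replicate block, where 36.2% of all genes passed, some did. In Polycomb repressive complex 2, Ezh2 fell (log2 fold change -0.73, limma adjusted p = 0.000420) and Phf1 rose. In Polycomb repressive complex 1, 4 of 16 fell, Bmi1 among them. In the Trithorax and demethylase list Kdm6b rose and 2 fell, Wdr5 and Dpy30.

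Upstream regulators and neighbours were measured too. A list of 11 genes held Cdx genes, retinoic acid genes and Gdf11, which set Hox expression in the embryo. Of these, 8 were tested, no Cdx gene among them, and 4 rose in Chd4dPax7ER, where 14.7% of all genes did. They were Rara by 1.13, Gdf11 by 1.07, Cyp26b1 by 0.98 and Rarg by 0.60 on the log2 scale. Cyp26b1 had 1.11, 1.53, 1.78 and 0.55 RPKM in Chd4dPax7ER libraries, against 0.39, 0.23, 0.62 and 0.21 RPKM in Chd4fl/fl libraries, and entered the test through the Chd4dPax7ER libraries. Cdx2 and Cdx4 were listed at 0 in all sorted-cell libraries. Of 5 tested genes that flank the clusters 4 fell (5 under either other scaling tried), where 11.9% of all genes did: Smug1 by 0.66 and Cbx5 by 0.58 beside HoxC, Skap2 by 0.65 beside HoxA, and Mtx2 by 0.26 beside HoxD. The other scalings called 2001 (TPM) and 1949 (quantile) of all 13344 genes lower, against 1588. The Mtx2 call was lost with the replicate block (limma adjusted p = 0.0787). Skap2 had 6.22, 6.54, 6.41 and 6.52 RPKM in Chd4dPax7ER libraries, against 9.83, 10.1, 10.8 and 10.7 RPKM in Chd4fl/fl libraries. Smug1 and Cbx5 thus fell while Hoxc4 and Hoxc8 rose. Of 12 noncoding genes of the clusters only Hotair was tested in vivo, with 0.97, 1.85, 1.69 and 1.04 RPKM in Chd4dPax7ER libraries, against 0.87, 0.63, 1.08 and 1.24 RPKM in Chd4fl/fl libraries, and it did not pass (log2 fold change 0.36, limma adjusted p = 0.275).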

How the data were processed

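Hox genes were described from 2 tables of RPKM values that the authors deposited, 1 for 8 cultured and 1 for 8 sorted-cell RNA-seq libraries, each with 46078 genes. For alignment and later steps the submitters' processing notes list HISAT2 2.1.0, HOMER, Picard 2.18.15, DESeq2 3.6, cutadapt 1.18, MACS2 2.1.2 and FastQC 0.11.8, with the builds GRCm38 and mm10 but no roles. No source used here names the counter or its strand setting. RPKM is not a count, so each table was tested on log2(RPKM + 0.5) with limma 3.58.1 (R 4.3.3) and its mean-variance trend. Genes with at least 0.5 RPKM in 4 of 8 libraries were tested, Benjamini-Hochberg adjustment ran over all of them, and an adjusted p under 0.05 was called. Fold changes on this scale understate those of low genes. Differences between settings used the 2 fold changes and their standard errors. The fits were tested on simulated data.

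Same-numbered libraries deviated together from their group means in vitro (correlations of 0.711 to 0.856 over genes) but not in vivo (-0.0967 to 0.0499), so the number pairs the cultured libraries only. The F test of the number and the reads behind RPKM values were chosen after the data were seen. Reads were taken from the step size of the values: 60.1% of 21098 genes had a common step in vitro within 0.001 reads, and 95.6% to 96.9% of low in vivo values lay within 0.1 of a whole read, assuming the same gene lengths in both tables. Intervals are limma intervals from the spread between libraries, while the floors for values of 0 cover counting error only. The Hox genes, lists and markers were chosen with earlier results of these data known. Values in every library are given for Hox genes called in either table and for the highest of each cluster by control mean, and up to 4 called members are named per list; other genes named were chosen after their values were seen. Figures were drawn with matplotlib 3.10.9. Some Hox and related genes are not reported here by name, although counts and sums include them.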

Additional observations from a re-analysis of the deposited data

Results flagged for a closer look

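In 4 of 86 combinations of a Hox gene and a group, 1 library stood apart from the other 3 by a gap that took more of the range than Dixon's critical value, and chance flags about 1 in 20 groups. These involved 3 libraries, since AdCRE replicate 4 stood apart for both Hoxc9 and Hoxc11. Hoxa13 in AdGFP had a gap ratio of 0.991, with replicate 4 at 1.10 RPKM and the others at 0.391 to 0.397 RPKM. Hoxc9 in AdCRE had a ratio of 0.831, with replicate 4 at 3.53 RPKM and the others at 0.637 to 1.12 RPKM. Hoxc11 in AdCRE had a ratio of 0.862, with replicate 4 at 9.59 RPKM and the others at 0.888 to 2.09 RPKM. Hoxa5 in Chd4dPax7ER had a ratio of 0.850, with replicate 3 at 2.14 RPKM and the others at 0.47 to 0.72 RPKM. The Hoxa7 log2 fold change differed between the settings, by -1.16 in vivo minus in vitro, as tested in the difference of the limma fits.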

How the results depend on the processing

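Hoxa7, Hoxa9 and Hoxc4 passed in vivo under each pseudocount, filter, scaling, variance model, block and left-out library that was run, Hoxc4 only narrowly with the block (limma adjusted p = 0.0494). The number of Hox genes that rose in vivo was 2, against 1 without the filter and 1 to 2 with a library left out. With the filter at 1 RPKM, Hoxa4 was not tested. In vitro, 0 Hox genes rose in limma fits without the block (1 at an unadjusted p under 0.05), 3 with the replicate block and 2 to 3 with the block and a pair left out. All-gene calls in vitro were 89 without the block, 4907 with it and 16 to 44 with a library left out. In vivo the numbers do not pair the libraries, and the block gave 2878 calls against 3548, with Hoxa4 the Hox call lost. The count of Hox genes whose fold changes differed between settings was 1, against 3 with the replicate block in vitro and 1 to 2 with a library left out. For this difference, the share of all genes was counted without the block only. The test of the replicate number called 26 Hox genes, and 22 to 27 under other settings with all numbers kept. Calls that were higher in vivo made up 55.2% of calls, against 46.2% with TPM scaling and 47.3% with quantile scaling, and the same 5 Hox genes passed in each. The cause of these changes was not tested. Depth limits the Hox genes near 0 in vivo, where 1 read moves a value visibly.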
